A study of Homo sapiens with 6 samples.

Results

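The genes described here mark the 2 ends of the epithelial-mesenchymal axis in tumors of MDA-MB-231, a human triple-negative breast cancer line of mesenchymal character. The set was given as 32 symbols, 24 of them epithelial junction, adhesion and regulator genes and 8 of them mesenchymal cadherin, matrix and TGF-β genes. A gene was measured where the array annotation gave it a probeset of its own, and its value was that of the probeset with the highest mean over all arrays. By this rule 31 of the 32 genes were measured (23 epithelial and 8 mesenchymal), among 18132 genes in all. F11R, a tight junction adhesion molecule, was not analysed here.

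Tumors came from NOD/SCID mice aged 4 to 6 weeks that carried MDA-MB-231 cells, injected subcutaneously with Matrigel into both flanks. The 3 Epi samples came from mice given epinephrine, the adrenal stress hormone, at 2 mg per kg per day, given subcutaneously 7 days before the cells were injected. Their labels also carry a code number, 10 for replicates 1 and 3 and 20 for replicate 2, whose meaning is not given. The 3 PBS samples came from mice given the same volume of PBS. NOD/SCID mice lack functional T and B cells, and every sample came from 1 cell line. RNA of primary cells extracted from the tumors was read on Affymetrix Human PrimeView arrays, 1 array per sample, with values on a log2 scale. The labels call the samples biological replicates but do not say which mouse or flank each came from, so p-values measure the spread between these samples. With 3 arrays a group, precision is limited by their number.

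Epithelial cells are held together by adherens junctions, built on cadherins, by tight junctions, built on claudins and occludin, and by desmosomes, built on desmosomal cadherins, plakophilins, plakoglobin and desmoplakin. In the epithelial-mesenchymal transition, factors of the SNAI and ZEB families bind E-boxes in the promoters of junction genes and repress them, while vimentin, fibronectin and N-cadherin are gained. TGF-β ligands are known inducers of this change, and OVOL, GRHL and ESRP proteins are known to hold the epithelial state.

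Among markers of the labelled line, CD44, VIM, EGFR, CAV1, AXL and MSN were all bright, with 0 of 6 below the dim limit. PGR, a receptor this line lacks, lay under that limit and read 3.2 to 3.4. ESR1, at 6.81 to 7.27, and ERBB2, at 7.81 to 9.01, lay above that limit, although the line is known to lack the estrogen receptor and ERBB2 amplification. The limit was 5.69, the 30th percentile of the mean levels of all genes. The replicate 1 arrays of both groups stood apart from the other 4. Their medians were 5.98 to 6.05 against 6.37 to 6.42, and their ACTB 3′ control probesets exceeded the 5′ ones by 2.94 to 3.17 against 1.45 to 1.72. The same measure for GAPDH ran the other way, at -0.37 and -0.12 against 0.15 to 0.28. Arrays of the same replicate number deviated together from their group means, but Epi replicate 2 and PBS replicate 3 did so too. The genes were therefore tested without and with the replicate number as a block, the fit without it being the main one. Adjusted p-values without the block were 1.00 for every gene named here, and those printed beside single genes come from the blocked fit, as do their 95% intervals, which were wider without the block for all 31 genes.

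The first question was whether any junction or mesenchymal gene differed between Epi and PBS tumors. In the limma fit without the block, 0 of 31 genes passed an adjusted p of 0.05, as did 0% of the 18132 genes tested. At an unadjusted p under 0.05 this fit held 1 of 31, TGFBI, against 1.33% of all genes, and the methods' t-test called 0 after adjustment. With the replicate block limma called 1 of 31, TGFBI, which was higher in Epi tumors, against 0.673% of all genes (64 higher and 58 lower). At an unadjusted p under 0.05 the blocked fit held 9 of the 31 genes, against 5.22% of all genes. CDH3, CLDN1, JUP, TGFBI and TGFB2 lay higher and GRHL2, CLDN4, CDH11 and FN1 lay lower in Epi tumors. The set was chosen with earlier results of these data known, so such shares describe it and are not a test of it.

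The epithelial genes had a median difference (Epi minus PBS) of -0.0066, with 11 above 0 and 12 below, and the mesenchymal genes one of -0.21, with 3 above and 5 below. The median over all genes was -0.016. The genes with the widest differences lay on both sides of 0 at both ends of the axis. All 3 replicate pairs had the same direction for 13 of 31 genes, 6 higher and 7 lower, against 18.9% of all genes. Those were 6 of the 23 epithelial genes and 7 of the 8 mesenchymal genes. Groups did not overlap for 1 of 31 genes, CLDN1, against 3.2% of all genes. These are bulk samples, in which fewer cells of a type and less RNA per cell cannot be told apart.

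**Figure D1:**
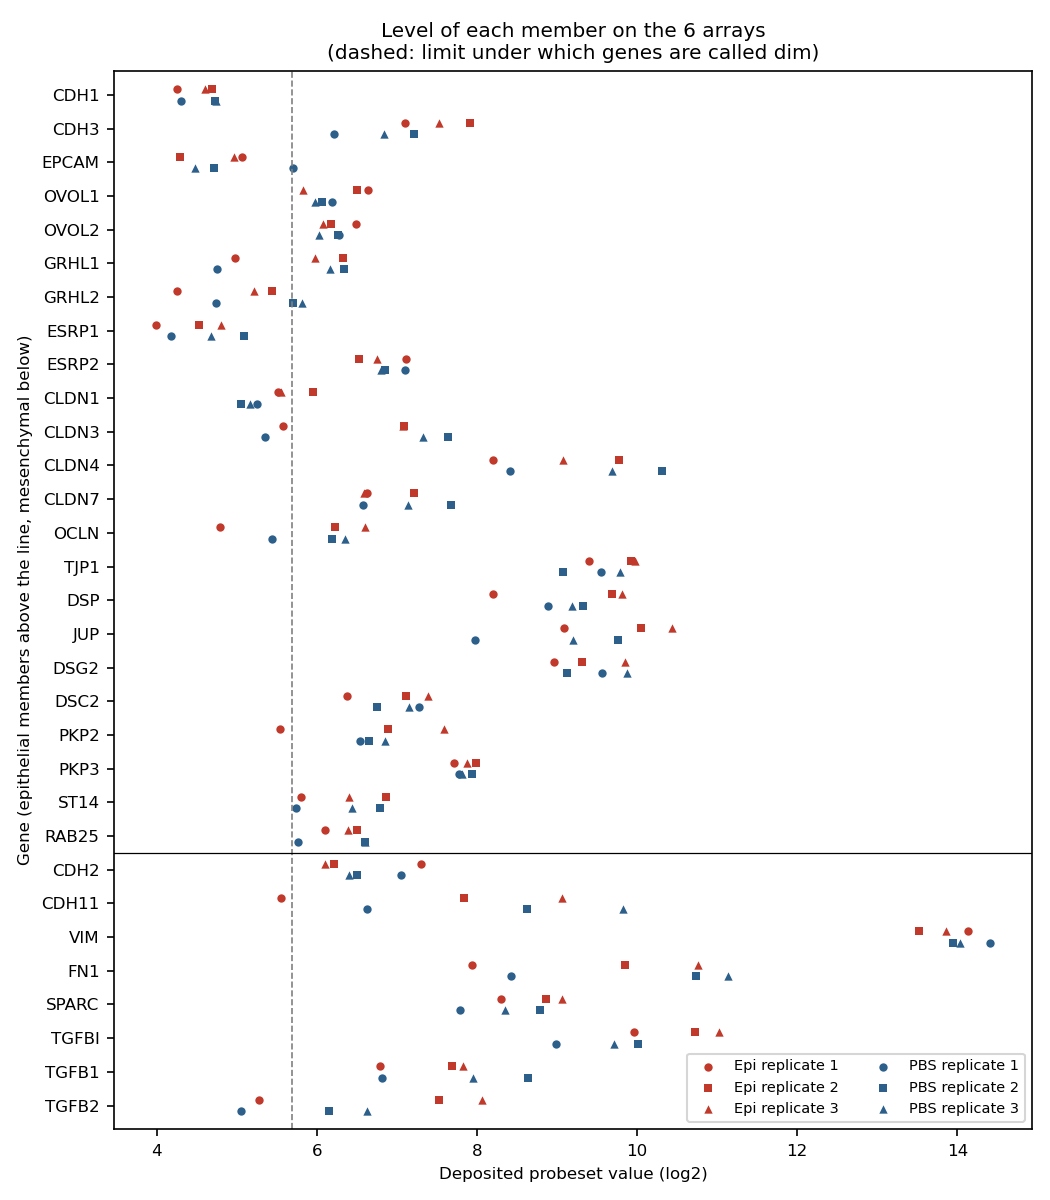
Level of each of the 31 measured genes on the 6 arrays (x axis, deposited log2 value), Epi in red above PBS in blue, with marker shapes for replicates and epithelial genes above the horizontal line. The dashed line is the dim limit of 5.69, under which CDH1, EPCAM, GRHL2, ESRP1 and CLDN1 had their means, and the Epi and PBS points overlap for all genes but CLDN1.

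**Figure D2:**
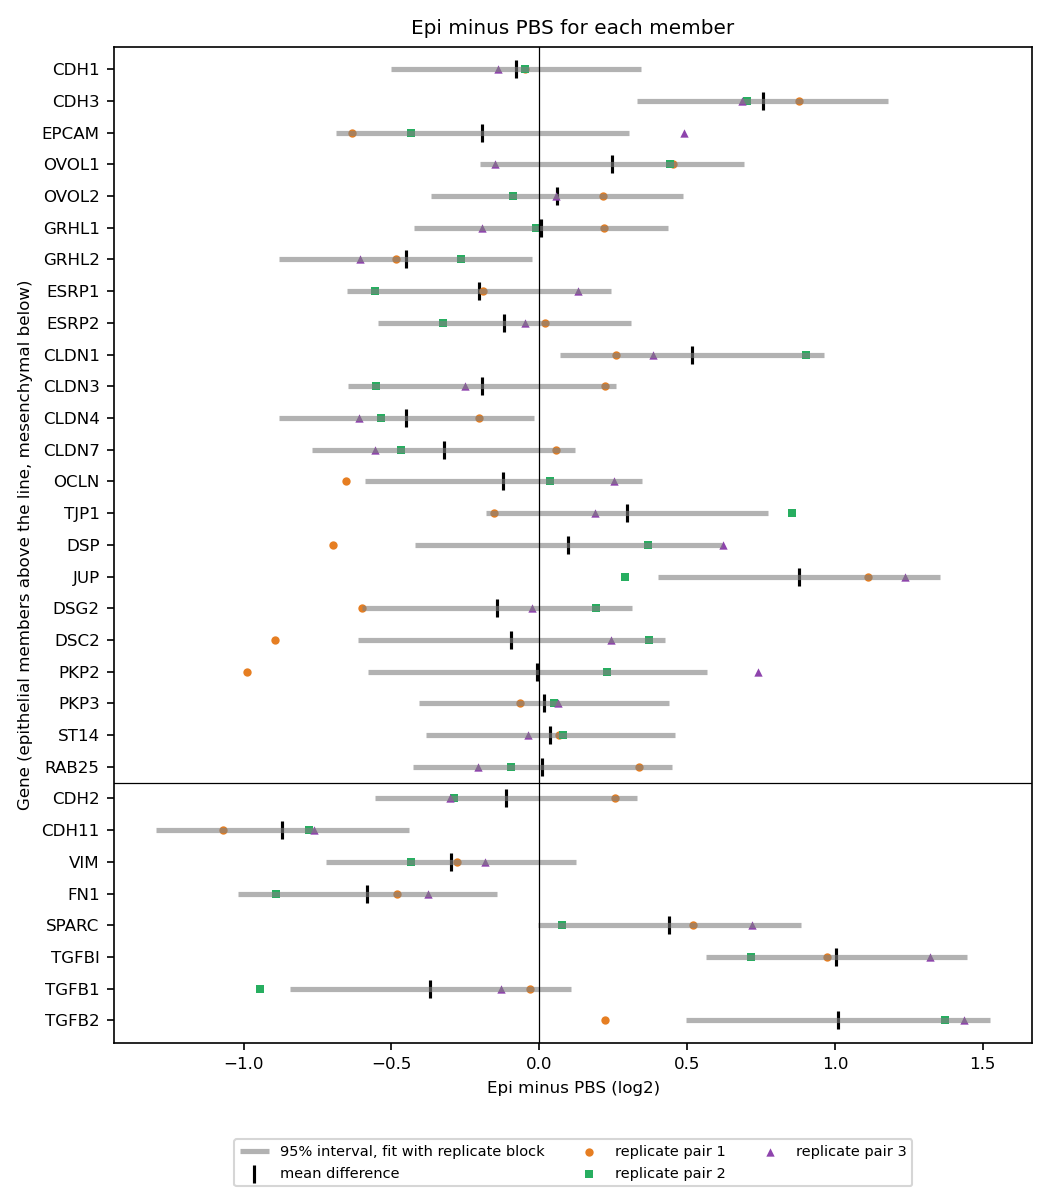
Epi minus PBS on the log2 scale for each measured gene, with the 3 replicate pairs as points, the mean difference as a tick and its 95% interval from the fit with the replicate block as a bar. TGFB2 (1.01) and TGFBI (1.00) lie farthest to the right and CDH11 (-0.87) farthest to the left.

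Among the adhesion genes, CDH1 encodes E-cadherin, the defining cadherin of epithelia. CDH1 read 4.25, 4.68 and 4.60 in Epi tumors, against 4.30, 4.73 and 4.74 in PBS tumors. All 6 arrays lay under the dim limit and the groups overlapped, with a difference of -0.08 (95% interval -0.50 to 0.34 with the block). EPCAM, an epithelial adhesion molecule, was also dim, at 5.07, 4.28 and 4.96 in Epi tumors, against 5.70, 4.72 and 4.47 in PBS tumors. CDH3 encodes P-cadherin, a cadherin of basal epithelium. CDH3 read 7.10, 7.91 and 7.53 in Epi tumors, against 6.22, 7.21 and 6.84 in PBS tumors. Each Epi array lay above the PBS array of its own number, by 0.88, 0.70 and 0.69, although Epi replicate 1 lay below PBS replicate 2. The means were 7.51 ± 0.41 in Epi tumors and 6.76 ± 0.50 in PBS tumors (SD, n = 3 each), a 1.69-fold difference in limma (adjusted p = 1.00 without the block and 0.142 with it). The second CDH3 probeset differed by 0.25, and without PBS replicate 1 the difference was 0.49.

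The epithelial regulators were OVOL1 and OVOL2, transcription factors that repress mesenchymal genes, GRHL1 and GRHL2, grainyhead factors that activate junction genes, and ESRP1 and ESRP2, splicing factors of epithelial isoforms. GRHL2 read 4.25, 5.44 and 5.21 in Epi tumors, against 4.73, 5.70 and 5.82 in PBS tumors. Epi lay below PBS in each pair, yet the groups overlapped and 4 of the 6 values lay under the dim limit. The difference of -0.45 had an adjusted p of 0.858 in limma with the block, and the other 4 GRHL2 probesets differed by -0.07 to 0.13. Without the block and with single arrays left out it ranged from -0.79 (without PBS replicate 1) to -0.09 (without Epi replicate 1). The other regulators differed by -0.20 (ESRP1) to 0.25 (OVOL1). OVOL1 read 6.64, 6.50 and 5.83 in Epi tumors, against 6.19, 6.06 and 5.98 in PBS tumors. Its pairs disagreed in direction, as did those of OVOL2, GRHL1, ESRP1 and ESRP2.

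Of the tight junction genes, claudins form the paracellular seal, occludin is a membrane protein of the same strands, and TJP1 (ZO-1) is their scaffold. CLDN1 read 5.51, 5.95 and 5.55 in Epi tumors, against 5.25, 5.05 and 5.17 in PBS tumors. Every Epi value was above every PBS value. Groups did not overlap for this 1 of the 31 genes, against 3.2% of all genes. The difference was 0.52 (1.43-fold, limma adjusted p = 0.698 with the block). All CLDN1 values but that of Epi replicate 2 lay under the dim limit, as did the mean of every CLDN1 probeset. Of its 4 probesets, the other 3 gave 0.48, 0.04 and -0.14, and without replicate 2 of both groups the blocked difference was 0.32. CLDN4 read 8.20, 9.78 and 9.08 in Epi tumors, against 8.41, 10.31 and 9.69 in PBS tumors. The groups overlapped, but Epi lay lower in each pair, by -0.20, -0.54 and -0.61, and all 3 CLDN4 probesets gave a negative difference (-0.45, -0.14 and -0.48). The limma adjusted p for CLDN4 was 0.877 with the block. Without it, single arrays moved the CLDN4 difference widely, to -0.04 without Epi replicate 1, -0.03 without PBS replicate 2, -0.83 without Epi replicate 2 and -0.98 without PBS replicate 1. CLDN3, CLDN7, OCLN and TJP1 had differences of -0.19, -0.32, -0.12 and 0.30, and each had pairs of both signs.

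The desmosome genes split by replicate number. JUP encodes plakoglobin, a catenin shared by desmosomes and adherens junctions, and read 9.08, 10.05 and 10.43 in Epi tumors, against 7.97, 9.76 and 9.20 in PBS tumors. Epi was higher in each pair, by 1.11, 0.29 and 1.24, and the groups overlapped through Epi replicate 1. This was a 1.84-fold difference (0.88, 95% interval 0.40 to 1.36 with the block, limma adjusted p = 0.120), read by 1 probeset. Leaving out PBS replicate 1, the lowest array, brought the JUP difference to 0.38, and leaving out Epi replicate 1 or PBS replicate 2 brought it to 1.27. DSP, DSG2, DSC2, PKP2 and PKP3 encode desmoplakin, a desmoglein, a desmocollin and the plakophilins 2 and 3. In pair 1 these 5 genes lay lower in Epi, and with JUP the 6 desmosome genes had a median pair difference of -0.65. In pair 2 all 6 lay higher in Epi, with a median of 0.26, and in pair 3 all but DSG2 did, with a median of 0.43. PKP2 had the widest split of the pairs on the probeset used: it read 5.55, 6.88 and 7.59 in Epi tumors, against 6.53, 6.66 and 6.85 in PBS tumors. Its pair differences were -0.99, 0.23 and 0.74, for a mean of -0.01. The second PKP2 probeset, also above the dim limit, gave 0.49 with all 3 pairs above 0 (0.06, 0.93 and 0.48). On the probesets used, JUP alone of the 6 kept 1 direction, and the part of the replicate 1 arrays' distance from the others in the pair 1 values was not tested. ST14, the protease matriptase, and RAB25, a small GTPase of epithelial membrane traffic, differed by 0.04 and 0.01.

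Over the 18 epithelial genes not given in full by the tests above, differences lay between -0.32 and 0.30. Their 95% intervals lay between -0.77 and 0.77 with the block and between -1.65 and 1.26 without it. Each of these intervals holds changes of both signs, and the smallest difference detectable with 3 arrays a group was not computed.

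E-boxes were looked for in the promoters because SNAI and ZEB factors act through them on this gene class. RefSeq promoters (GRCh38.p14, 250 bases before to 50 after each start site) were listed for 19 of the 31 genes, 12 epithelial and 7 mesenchymal, and 1 gene can have several. CAGGTG, or CACCTG on the other strand, was in the promoters of 9 of the 12 epithelial genes and 0 of the 7 mesenchymal genes, against 24.7% of the 14425 tested genes with a promoter and 20.6% of all 35116 promoters. Of the genes with 1 promoter, 4 of 7 epithelial genes held it, against 19.7% of all such genes. One 30-base window is shown for each of the 9 genes, 5′ to 3′ on the gene's own strand with every E-box in capitals, to let the motif be read in the junction genes whose values are given above.
JUP, chr17:41786013-41786042, minus strand: cgactctggcccCACCTGccgagCAGGTGa
CLDN7, chr17:7262481-7262510, minus strand: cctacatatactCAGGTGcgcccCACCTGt
CLDN3, chr7:73770221-73770250, minus strand: cccacaaagccacaggCAGGTGcaggcgca
OCLN, chr5:69492502-69492531, plus strand: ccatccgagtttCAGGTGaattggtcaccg
TJP1, chr15:29969120-29969149, minus strand: gcggccggcgcgCAGGTGgcccggcctcgc
DSP, chr6:7541574-7541603, plus strand: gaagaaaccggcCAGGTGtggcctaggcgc
DSG2, chr18:31498049-31498078, plus strand: tcgcggcggccaCACCTGgagccgcgcctt
DSC2, chr18:31102560-31102589, minus strand: tcaactttctgtCAGGTGggcctcaggcag
RAB25, chr1:156061107-156061136, plus strand: catctctccaccCACCTGggccccaggtct

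JUP and CLDN7 each showed a pair of E-boxes of opposite orientation within the window printed for them. The first boxes of these windows begin 54 bases before the start in JUP, 20 in CLDN7 and 33 in OCLN, while in CLDN3 the box lies 36 bases after it. The 9 genes with the motif had differences from -0.32 (CLDN7) to 0.88 (JUP). CLDN1, CLDN4 and GRHL1, the 3 epithelial genes with no match, differed by 0.52, -0.45 and 0.01. The GRHL site AACCGGTT, which reads the same on both strands, was in none of the 19 genes and in 0.2% of tested genes. A match describes letters only, and no factor's binding was measured here.

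**Figure D3:**
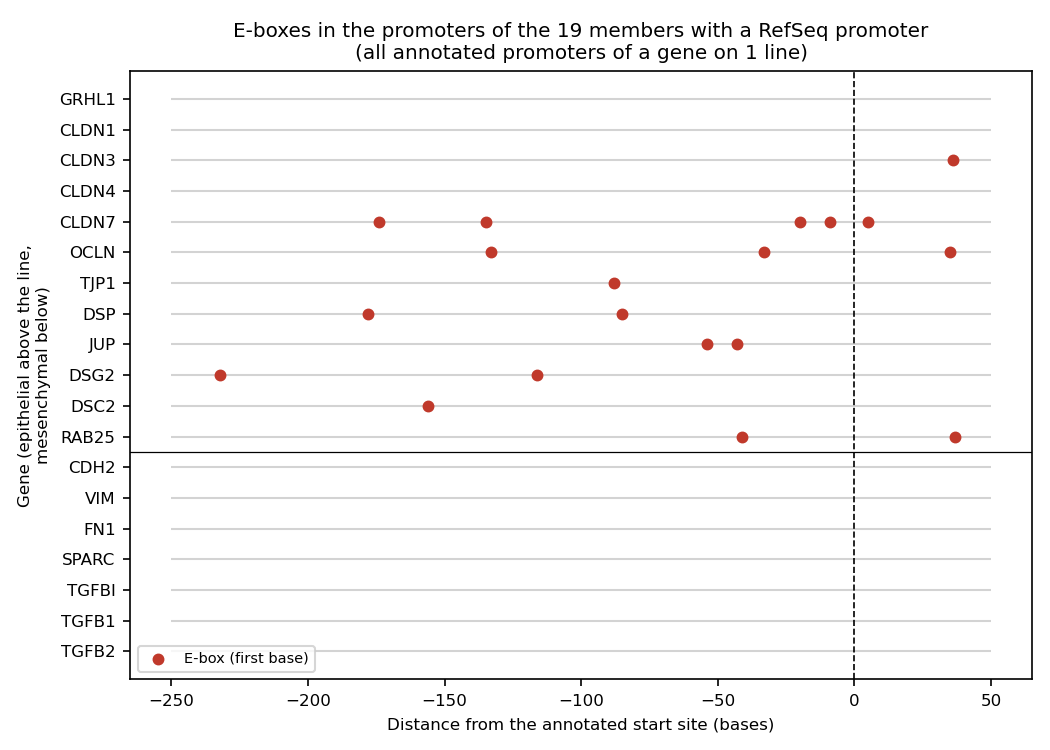
Position of each E-box (first base, x axis in bases from the annotated start site) in the promoters of the 19 listed genes, epithelial above the line and mesenchymal below. The 9 epithelial genes with an E-box carry 1 to 5 each, the most in CLDN7, and the 7 mesenchymal genes carry none.

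The E-box factors themselves were read as 6 genes. SNAI2 (SLUG) passed limma with the block (adjusted p = 0.0418) and was higher in Epi tumors: it read 6.96, 7.59 and 7.71, against 6.58, 6.18 and 6.16 in PBS tumors. Its groups did not overlap, and its difference was 1.11 (2.16-fold). The blocked call was lost after quantile normalization (adjusted p = 0.146) or median centring (0.176), with the mean of probesets (0.059), and without replicate 2 (0.362) or 3 (0.271). The remaining 5, SNAI1, ZEB1, ZEB2, TWIST1 and TWIST2, differed by -0.19 to -0.04, and ZEB2, TWIST1 and TWIST2 were dim.

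Of the mesenchymal cadherins, CDH2 encodes N-cadherin and CDH11 cadherin-11, a cadherin of mesenchymal cells. CDH11 read 5.56, 7.84 and 9.07 in Epi tumors, against 6.62, 8.62 and 9.83 in PBS tumors. The groups overlapped widely because levels differed by over 3 log2 units between replicate 1 and replicate 3 in both groups, but Epi lay below PBS in each pair, by -1.07, -0.78 and -0.76. With the block the difference was -0.87 (95% interval -1.30 to -0.44, limma adjusted p = 0.070). All 6 CDH11 probesets lay below 0, from -0.87 to -0.01, with -0.39 for their mean, but only 2 of them were above the dim limit. In pair 1 the other probesets gave -0.16, 0.31, -0.21, 0.19 and 0.17, against -1.07 on the one used. Epi replicate 1 lay under the dim limit on that probeset. Without the block the CDH11 difference was 0.10 when Epi replicate 1 alone was left out and -0.13 without PBS replicate 3. It was -1.66 without Epi replicate 3 and -1.74 without PBS replicate 1. Leaving out both replicate 1 arrays gave -0.77. With the block and replicate 1, 2 or 3 of both groups left out, the CDH11 difference was -0.77, -0.91 and -0.92. CDH2 read 7.31, 6.22 and 6.10 in Epi tumors, against 7.05, 6.51 and 6.40 in PBS tumors, with pairs of both signs.

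VIM encodes vimentin, the intermediate filament of mesenchymal cells, and was among the brightest of all genes (rank 32 of 18132). VIM read 14.13, 13.52 and 13.85 in Epi tumors, against 14.41, 13.95 and 14.04 in PBS tumors. Epi lay lower in each pair and the groups overlapped. The difference was -0.30 (95% interval -0.72 to 0.13 with the block), and the second probeset gave -0.35. FN1, fibronectin of the extracellular matrix, read 7.94, 9.85 and 10.76 in Epi tumors, against 8.42, 10.74 and 11.14 in PBS tumors. Epi again lay lower in each pair within overlapping groups. The FN1 difference was -0.58 (95% interval -1.02 to -0.14, limma adjusted p = 0.474 with the block), and all 8 probesets gave negative values, from -0.58 to -0.29, with -0.38 for their mean. Without the block the FN1 difference was 0.21 without Epi replicate 1, -0.06 without PBS replicate 3 and -0.26 without PBS replicate 2. It was -1.20 without Epi replicate 3 and -1.42 without PBS replicate 1. Leaving out both replicate 1 arrays gave -0.63. With the block and replicate 1, 2 or 3 of both groups left out, the FN1 difference was -0.63, -0.43 and -0.68.

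SPARC, a secreted matricellular protein that binds collagen, ran the other way. It read 8.30, 8.87 and 9.07 in Epi tumors, against 7.78, 8.79 and 8.35 in PBS tumors. The groups overlapped, and the difference was 0.44 (95% interval -0.01 to 0.88 with the block), with all 8 SPARC probesets between 0.23 and 0.60.

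TGFBI encodes a secreted matrix protein known to be induced by TGF-β. TGFBI read 9.96, 10.72 and 11.03 in Epi tumors, against 8.99, 10.01 and 9.71 in PBS tumors. Each Epi array lay above its own pair partner, by 0.97, 0.72 and 1.32, and only Epi replicate 1 reached down into the PBS range, just below PBS replicate 2. The means were 10.57 ± 0.55 in Epi tumors and 9.57 ± 0.52 in PBS tumors (SD, n = 3 each), a 2.01-fold difference. Limma gave an adjusted p of 1.00 without the block and 0.0354 with it. Gene-by-gene array weights without the block, an alternative chosen after seeing the data, gave 0.041. With the block the call was lost without replicate 1, 2 or 3 (adjusted p = 0.067, 0.082 and 0.379) and after quantile normalization (0.071) or median centring (0.108). The size of the difference was steadier than its call, at 0.72 to 1.31 over all alternatives. The 4 TGFBI probesets gave 1.00, 0.97, 0.94 and 0.92.

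The TGF-β ligands differed from each other. TGFB2 read 5.27, 7.52 and 8.06 in Epi tumors, against 5.05, 6.15 and 6.62 in PBS tumors. Pairs 2 and 3 differed by 1.37 and 1.44 and pair 1, with both arrays dim, by 0.22. The difference was 1.01 (2.01-fold, 95% interval 0.49 to 1.53, limma adjusted p = 0.087 with the block), and without replicate 1 of both groups it was 1.40 (adjusted p = 0.0161). Without the block, leaving out Epi replicate 3 or PBS replicate 1 brought it down to 0.46 or 0.56, and leaving out Epi replicate 1 brought it to 1.85. The second TGFB2 probeset was dim and gave 0.17, and the mean of both gave 0.59. TGFB1 read 6.79, 7.69 and 7.83 in Epi tumors, against 6.82, 8.64 and 7.96 in PBS tumors. Its 3 pairs were all below 0 (mean -0.37), most of it from pair 2 at -0.95, and it did not pass any test.

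**Figure D4:**
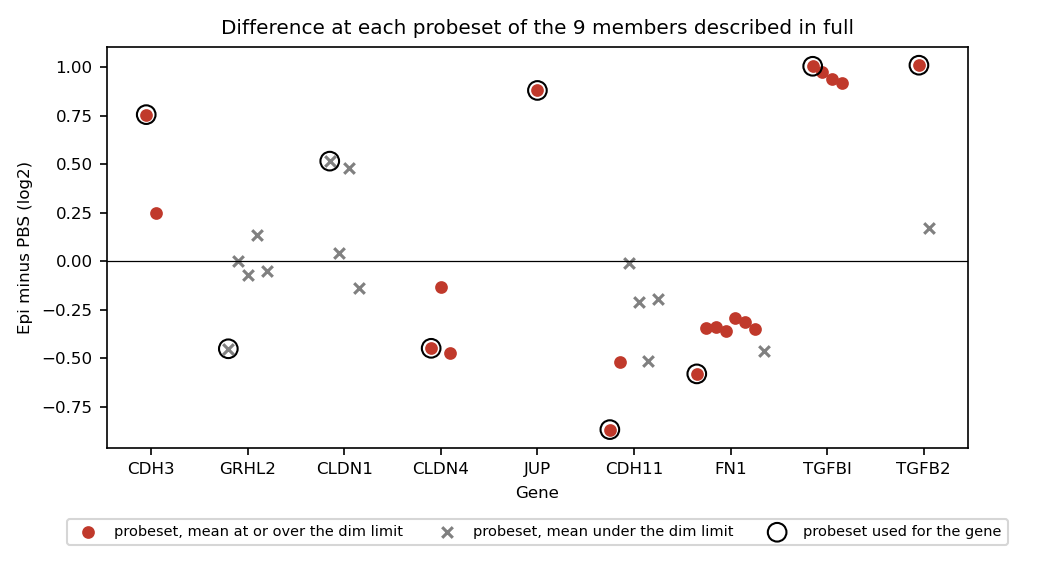
Epi minus PBS (log2, y axis) at every probeset of the 9 genes with an unadjusted p under 0.05 in the blocked fit, with the probeset used for the gene circled and probesets under the dim limit as grey crosses. The 4 TGFBI probesets lie together between 0.92 and 1.00 and all FN1 probesets lie below 0, while those of CLDN1 and GRHL2 lie on both sides of 0.

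The wider TGF-β pathway was read as 16 further genes, of which limma with the block called 0 higher and 1 lower, against 0.673% of all genes called. The lower one was LTBP1, a latent TGF-β binding protein that holds the ligand in the matrix. LTBP1 read 7.09, 8.56 and 9.92 in Epi tumors, against 7.89, 10.50 and 10.81 in PBS tumors, so it was lower in each pair while the groups overlapped. The LTBP1 difference was -1.21 (adjusted p = 0.0232 with the block). This call was lost after quantile normalization or median centring (adjusted p = 0.105 each), with the mean of probesets (0.113), and without replicate 1 (0.061) or 2 (0.789). Without the block the LTBP1 difference was -0.49 and -0.68 when Epi replicate 1 or PBS replicate 3 was left out, and -1.91 and -2.13 when Epi replicate 3 or PBS replicate 1 was. At an unadjusted p under 0.05 the blocked limma fit held 5 of the 16 pathway genes, against 5.22% of all genes. Groups did not overlap for 2 of the 16, against 3.2% of all genes. This list was chosen with earlier results of these data known, so these shares describe it and are not a test. TGFBR1, the type I receptor, was named after its values were seen, and its groups overlapped. TGFBR1 read 9.37, 10.34 and 11.01 in Epi tumors, against 9.21, 8.43 and 9.38 in PBS tumors, with pair differences of 0.16, 1.91 and 1.62. Its difference of 1.23 had an adjusted p of 0.0557 in limma with the block, and without replicate 1, 2 or 3 the adjusted p was 0.0112, 0.614 and 0.0876.

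**Figure D5:**
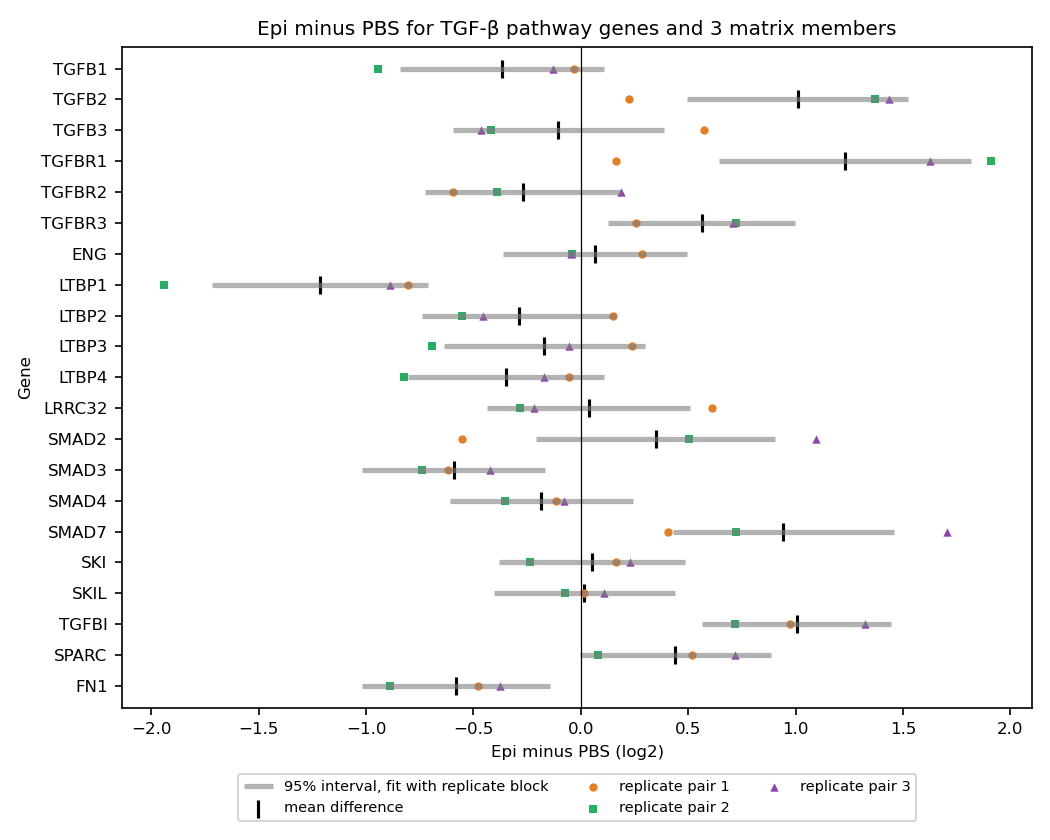
Epi minus PBS (log2) for TGF-β ligands, receptors, latency proteins and SMAD genes and for 3 matrix genes, with replicate pairs as points, the mean as a tick and the 95% interval of the blocked fit as a bar. TGFB2, TGFBR1 and TGFBI lie above 0 in all 3 pairs and LTBP1 and FN1 lie below 0 in all 3, while TGFB3 and SMAD2 have pairs on both sides.

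Other junction and state genes were read by list. Limma with the block called 1 of 26 further tight junction and polarity genes and 1 of 13 further epithelial genes, against 0.673% of all genes. It called 0 of 8 adherens junction, 0 of 9 desmosome and cornified envelope and 0 of 18 mesenchymal genes. Over the 90 genes of these lists and the TGF-β pathway together, it called 2 higher and 1 lower. PARD6B, a subunit of the Par polarity complex, read 7.50, 8.36 and 8.65 in Epi tumors, against 7.14, 6.49 and 6.60 in PBS tumors. The PARD6B groups did not overlap, and the difference was 1.43 (adjusted p = 0.0210 with the block). The PARD6B call held without any 1 replicate of both groups (0.0112 to 0.0458) and was lost after quantile normalization (0.107) or median centring (0.147). It was also lost with only the replicate 1 arrays as a block (limma adjusted p = 0.089). MAL2, a membrane protein of apical transport, read 4.87, 6.18 and 7.00 in Epi tumors, against 4.24, 4.88 and 5.26 in PBS tumors. All PBS arrays and Epi replicate 1 were dim. MAL2 differed by 1.22 (limma adjusted p = 0.0170 with the block), with Epi higher in each pair while the groups overlapped. That call was lost after quantile normalization (0.096) or median centring (0.101) and without replicate 2 (0.056) or 3 (0.156), and without the block the MAL2 difference was 0.73 when Epi replicate 3 was left out. In the lists with no call, the genes with the lowest unadjusted p without the block were VCL, vinculin (-0.37), PKP4, a plakophilin-related catenin (0.48), and TPM1, a tropomyosin (0.52). They were not near the threshold, with limma adjusted p of 0.9998, 0.779 and 0.699 with the block.

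Markers of other cells that the samples could hold were read beside these values, since fibroblasts also express FN1, SPARC, CDH11 and TGFBI. Of 9 fibroblast markers 6 were dim, LUM, DCN and COL3A1 among them, and the mean of the list ranged from 4.52 to 5.18 in Epi tumors and from 4.72 to 4.89 in PBS tumors. The 7 endothelial markers ranged from 6.20 to 6.43 in Epi tumors and from 5.93 to 6.74 in PBS tumors, with 2 dim. The 7 macrophage markers ranged from 5.39 to 5.49 in Epi tumors and from 5.19 to 5.81 in PBS tumors, with 4 dim, PTPRC among them. None of these lists, nor those of keratinocytes, adipocytes and red blood cells, held a gene past the limma threshold in either fit. At an unadjusted p under 0.05 the blocked fit held 2 of the 7 endothelial, 1 of the 7 macrophage and 0 of the 9 fibroblast markers, against 5.22% of all genes. Endothelial differences ran from -0.71 to 0.44. Groups did not overlap for 1 endothelial and 1 fibroblast marker, against 3.2% of all genes. The array reads human sequence, and the part of mouse host RNA in these values was not tested. Among 26 genes of other organs 15 were dim, and their means reached 9.13, so a level over the limit does not by itself show expression.

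The replicate 1 arrays lay at the edge of the range for many of these genes. Both replicate 1 arrays were the lowest of the 6 for 18 of the 31 genes (58.1%), against 42.2% of all genes, and the highest for 5 (16.1%), against 13.2%. CDH11, FN1, TGFB2, CLDN4 and CLDN3 were among the low ones and VIM and CDH2 among the high ones.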

How the data were processed

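The authors deposited log2 values of 49395 probesets on 6 arrays, and the submitters' notes name RMA and Affymetrix Expression Console, with no versions. No genome build is given in the sources used here. Control probesets (102) were left out. GEO's platform annotation gave 44988 probesets 1 gene, 1832 several and 2473 no entry, and only the first kind was used. Of 18132 genes, 11734 had several probesets. Some probesets, those of VIM, SPARC and TGFBI included, are of types that can match further transcripts.

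The test was limma 3.58.1, with lmFit and eBayes, run in R 4.3.3 on every gene, and p-values were adjusted by Benjamini-Hochberg over the whole table, with a threshold of 0.05. The paper's statistics section names no test for the arrays, so its t-test was an alternative. Replicate numbers come from the labels. Deviations from the group means correlated at 0.630, 0.627 and 0.453 for numbers 1, 2 and 3, all over 0.1, so the numbers were treated as pairs. Epi replicate 2 and PBS replicate 3 also correlated (0.523), above the value of number 3. These correlations therefore cannot show that the numbers mark true pairs, which the labels do not state. All measured members were described, in full where a fit gave an unadjusted p under 0.05 or groups did not overlap. Of other lists, genes past the threshold in either fit were named, or otherwise the one with the lowest unadjusted p without the block. The members and lists were chosen with earlier results of these data known. Other alternatives were normalization, probeset choice, dim genes, array weights and left-out arrays. The steps were tested on simulated data. Motifs were counted in RefSeq promoters (GRCh38.p14), whose coordinates do not come from the array files.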

Additional observations from a re-analysis of the deposited data

How the results depend on the processing

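Against 0 genes and 0 members past the limma threshold without the block, gene-by-gene array weights gave 109 genes and 1 member (chosen after seeing the data, since the planned array weights did not converge and are not given), the replicate block 122 and 1, the block with the mean of probesets 81 and 1, the block with quantile normalization 56 and 0, the block with median centring 53 and 0, the replicate 1 arrays as a block 40 and 0, and replicates 2 and 3 alone 16 and 0. The block without replicate 1, 2 or 3 of both groups gave 162, 66 and 129 genes and 0 to 1 member, TGFB2 without replicate 1. The cause of these differences was not tested. Leaving out single arrays without the block gave 0 members each time. With single arrays left out, without the block, CDH11 ranged from -1.74 to 0.10 and FN1 from -1.42 to 0.21. Their direction turned without Epi replicate 1, and no other gene with a test by name turned. With replicate 1 left out of both groups neither turned, at -0.77 for CDH11 and -0.63 for FN1. TGFBI passed in 3 of 23 alternatives (adjusted p = 0.0354, 0.0404 and 0.0410), PARD6B in 7 of 23, SNAI2 in 4 of 23, MAL2 in 3 of 22 and LTBP1 in 2 of 23. None of them passed with only the replicate 1 arrays as a block. The limma adjusted p there was 0.067 for TGFBI, 0.089 for PARD6B, 0.102 for SNAI2, 0.118 for MAL2 and 0.216 for LTBP1. Medians ranged from -0.15 to 0.13 (epithelial) and from -0.30 to 0.15 (mesenchymal), both highest without Epi replicate 1. Without PBS replicate 1 the median over all genes was -0.13, a shift of -0.11. The authors' normalization could not be varied, values near the dim limit have little signal over background, and 3 arrays a group leave intervals wide.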
